A study of Homo sapiens with 6 samples.

Results

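The liver X receptors (LXRs) and a set of their target genes were examined in HEK293 cells treated with GSK-A1. The set was fixed by symbol. It held the 2 receptor genes NR1H2 and NR1H3 and the 7 targets ABCA1, ABCG1, ABCG4, MYLIP, LPCAT3, SMPDL3A and APOE. All 9 symbols matched 1 row each among the 63140 genes of the deposited count table, and 8 of the 9 passed the filter on low counts. ABCA1 did not pass it.

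The study compared 3 RNA-seq libraries from cells given the solvent dimethyl sulfoxide (DMSO) with 3 from confluent cells given GSK-A1 at 100 nM for 24 h; the labels give no duration for DMSO. HEK293 is an established human line of embryonic kidney origin, kept in DMEM with 10% fetal bovine serum. GSK-A1 inhibits the lipid kinase encoded by PI4KA, a source of phosphatidylinositol 4-phosphate in the plasma membrane. The labels call the libraries biological replicates and do not say how the cultures were separated, so p-values measure the spread between these libraries.

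LXRs are nuclear receptors that bind oxysterols, the oxidised derivatives of cholesterol, and act on DNA as heterodimers with retinoid X receptors. When ligand is present they raise genes that export cholesterol, restrain LDL uptake, remodel phospholipids and feed fatty acid synthesis. They are best known in macrophages and liver, where ABCA1 and ABCG1 load cholesterol onto lipoprotein particles. The sterol-regulated transcription factor SREBP2 works in the opposite sense, driving cholesterol synthesis and uptake when sterol is low.

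The LXR response element is a direct repeat of a hexamer with 4 bases between the copies (DR4), written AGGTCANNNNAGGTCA. It was searched on both strands from 250 bases before to 50 bases after each transcription start in the RefSeq promoter table (GRCh38.p14), allowing 2 mismatches over the 12 specified bases. This table held a promoter for 7 of the 9 genes, without ABCG1 and SMPDL3A, and 2.34% of its 35116 promoters had a match. Of these 7 genes, ABCA1 had a match. Its upstream sequence is shown because it holds the element of the best known target, with the matched bases in capitals, on the strand of the gene (chr9:104928156-104928405, minus strand).

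ABCA1 upstream: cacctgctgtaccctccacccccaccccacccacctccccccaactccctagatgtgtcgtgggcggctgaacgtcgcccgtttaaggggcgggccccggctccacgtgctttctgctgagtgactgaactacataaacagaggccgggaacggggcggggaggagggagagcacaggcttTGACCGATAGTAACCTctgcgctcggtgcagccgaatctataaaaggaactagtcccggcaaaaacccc

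The capitals lie at bases -69 to -54 from the start (chr9:104928209-104928224) and form the element on the opposite strand, compared here with the consensus.

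DR4 consensus: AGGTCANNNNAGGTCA
ABCA1 site: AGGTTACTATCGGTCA

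Counted from 1 at the 5′ end of that strand, the ABCA1 site differs from the consensus by C5T and A11C. The closest stretches in the promoters of the other 6 genes had at least 4 mismatches. A match describes these letters and says nothing of binding in these cells.

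Library totals ran from 33040178 to 47777233 counts. No pair of libraries agreed within sampling noise (chi-square per gene 1.84 to 3.20 between DMSO libraries). The second GSK-A1 library stood apart from its group, at a chi-square per gene of 11 and 15.6 against 2.90 between the others. Of 7 genes listed for HEK293 cells, 6 were above 1 CPM (counts over the library total scaled by trimmed-mean factors, times 1e6) in every library, namely PAX2, LHX1, NEFL, CDH2, VIM and KRT18, and NEFM was at most 0.381 CPM. The 7 summed to 1983 to 2056 CPM with DMSO and 2118 to 2312 CPM with GSK-A1, and the part of this in the results was not tested. The 4 macrophage genes PTPRC, CD14, CSF1R and ITGAM were below 1 CPM in every library, summing to 0.603 to 0.729 CPM with DMSO and 0.527 to 1.07 with GSK-A1. The 3 hepatocyte genes ALB, APOA1 and CYP7A1 summed to 0.125 to 0.308 and 0.117 to 0.236 CPM. None of these 7 genes was at 0 in all libraries. PI4KA mRNA did not pass the test (-0.04 ± 0.04 on the log2 scale, SE; edgeR adjusted p = 0.456).

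The LXR genes spanned a wide range of levels. To compare genes, CPM values were divided by the exonic length in kilobases. On this scale with DMSO, LPCAT3 was highest at 12.9 ± 0.6, followed by MYLIP at 10.2 ± 0.2, NR1H2 at 8.86 ± 0.20 and SMPDL3A at 5.40 ± 0.06 CPM per kilobase (SD, n = 3). Lower levels followed, with APOE at 0.98 ± 0.05, NR1H3 at 0.952 ± 0.027, ABCG1 at 0.595 ± 0.015 and ABCG4 at 0.336 ± 0.029 CPM per kilobase. ABCA1 was last at 0.0172 ± 0.0044 CPM per kilobase. The ranges of APOE and NR1H3 overlapped with DMSO, and those of all other neighbours in this order did not. With GSK-A1 the order was the same, and the ranges of MYLIP and NR1H2 overlapped as well as those of APOE and NR1H3. Divided by the longest transcript instead, NR1H2 came before MYLIP and the other positions were unchanged.

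**Figure D1:**
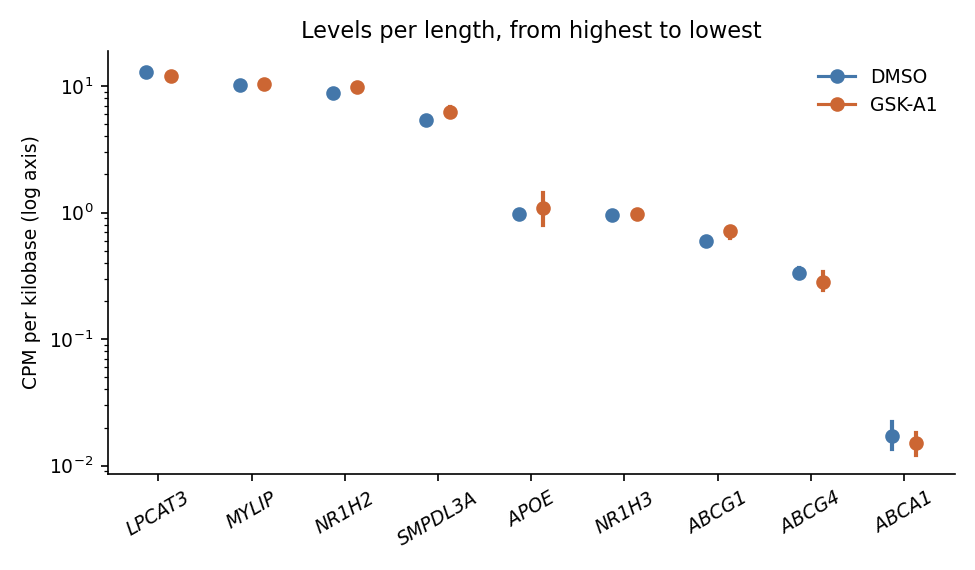
Level of each LXR gene per exonic length with DMSO (blue) and GSK-A1 (orange), in CPM per kilobase on a log axis. Points are means of 3 libraries and bars run from the lowest to the highest library. LPCAT3, MYLIP, NR1H2 and SMPDL3A lie above 5, and ABCA1 lies below 0.03.

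GSK-A1 was then compared with DMSO gene by gene. NR1H2 and SMPDL3A rose, by 10.4% and 15%, and the other 6 genes tested did not pass the threshold. This is 2 of 8 genes, or 25.0%, against 22.9% of all 16754 genes tested, so the share of LXR genes called was near the background. In bulk RNA, fewer cells that express a gene and less RNA per cell cannot be told apart. Both calls were for a rise, where 12.0% of all genes tested were called higher and 10.9% lower. At an unadjusted p under 0.05 there were 4 of the 8 (3 higher and 1 lower), beside 35.8% of all genes tested. The median log2 fold change of the 8 genes was 0.09, beside -0.01 over all genes tested, and 6 estimates lay above 0. That median was 0.02 without GSK-A1 replicate 3 and 0.05 under upper-quartile factors. In 3 of the 8 genes (NR1H2, SMPDL3A and ABCG1) all GSK-A1 libraries lay above all DMSO libraries, and in none did they all lie below. Groups did not overlap for 40.5% of all genes tested, with GSK-A1 above in 20.2% and below in 20.4%. With 1 library left out, the count of LXR genes without overlap ran from 3 to 5 of 8. It was 3 without DMSO replicate 3, beside 47.5% of all genes compared in the same way. It was 5 without GSK-A1 replicate 2, beside 51.8%, and 4 without any of the other libraries.

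Both calls were close to the threshold, and most fits without 1 library did not make them. On data simulated with a dispersion of its own for each gene, the same fit made more wrong calls than its nominal rate, which bears on calls this close to the threshold. With edgeR, 0 of the 8 genes were called when any DMSO library or GSK-A1 replicate 1 was left out, although 2 to 4 then had an unadjusted p under 0.05. The share of all genes called fell as well in these fits, to between 12.7% and 15.9%. NR1H2 alone was called once GSK-A1 replicate 2 was removed, and SMPDL3A alone once GSK-A1 replicate 3 was, where 28.1% and 21.9% of all genes were called. DESeq2 called 0, with 2 genes at an unadjusted p under 0.05, beside 18.5% of all genes, and limma-voom called 1, beside 22.5%.

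**Figure D2:**
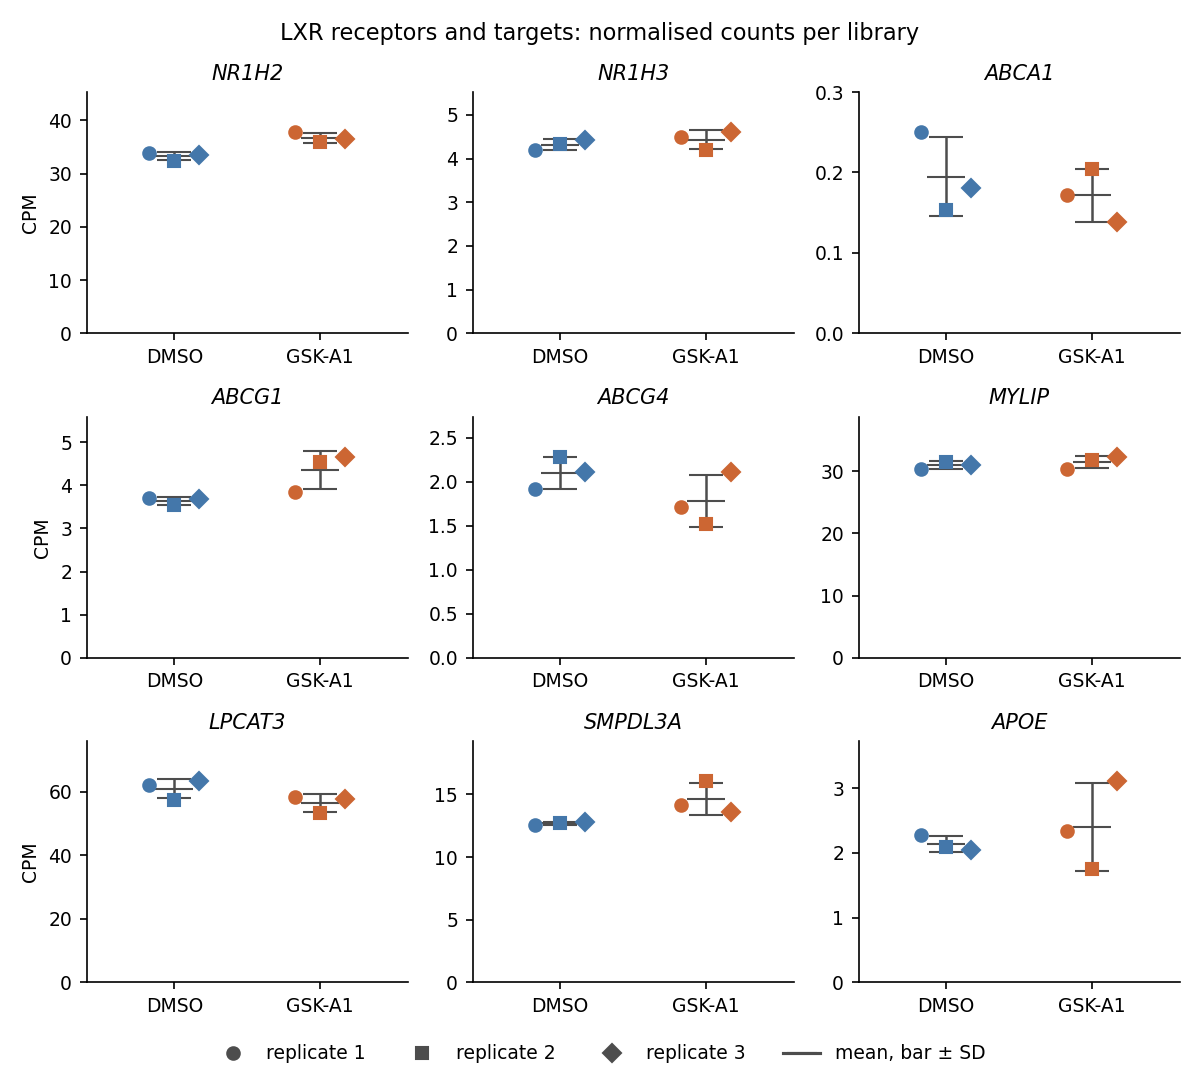
Normalised counts (CPM) of the 9 LXR genes in each library, with a separate axis from 0 for each gene. Marks are the 3 replicates of DMSO (blue) and GSK-A1 (orange), and bars give the mean ± SD. The groups separate in NR1H2, ABCG1 and SMPDL3A and overlap in the other genes.

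Of the receptors, NR1H2 (ENSG00000131408) encodes LXR beta, the form found in most tissues. The gene lies on chromosome 19 (50329653 to 50382982, plus strand, GRCh38). With the replicates in order, its CPM were 33.9, 32.4 and 33.4 under DMSO and 37.8, 35.8 and 36.4 under GSK-A1. The lowest GSK-A1 library lay above the highest DMSO library. This is 0.14 ± 0.05 on the log2 scale (SE; edgeR adjusted p = 0.0369; 95% interval 0.04 to 0.24). The call held in 7 of 15 other settings, among them removal of the GC trend, which moved the value to 0.21 (edgeR adjusted p = 0.00113). Over the 15 settings the adjusted p ran from 0.00113 to 0.157.

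NR1H3 (ENSG00000025434, chromosome 11, 47248300 to 47269032, plus strand) encodes LXR alpha, which is prominent in liver, fat and macrophages and is itself an LXR target in some human cells. It stood at 4.19, 4.33 and 4.43 CPM with DMSO and at 4.5, 4.19 and 4.60 CPM with GSK-A1. The groups overlapped. The difference was 0.04 ± 0.09 on the log2 scale (SE; edgeR adjusted p = 0.781). Its 95% interval of -0.16 to 0.24 runs from -10.3% to 18.5%, so a missed threshold does not show that the level was the same here or in the other uncalled genes. Antisense exons of ACP2 overlapped 4.17% of its exonic bases.

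The balance of the receptors was read as the ratio of their raw counts within each library, which does not depend on library scaling. Each count of NR1H3 was matched by 8.08, 7.49 and 7.54 counts of NR1H2 under DMSO and by 8.39, 8.56 and 7.92 under GSK-A1, and the groups overlapped. Per exonic length this is a ratio of 9.31 ± 0.40 under DMSO and 10.01 ± 0.40 under GSK-A1 (SD, n = 3), so LXR beta mRNA was the larger receptor pool in every library. The shift of 0.11 on the log2 scale did not pass (exact two-sided permutation p = 0.2, adjusted over 2 ratios p = 0.2, where 3 against 3 libraries allow no p below 0.1). The paralog ratios were chosen after the values had been seen.

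Of the cholesterol exporters, ABCA1 (ENSG00000165029, chromosome 9, 104781002 to 104928237, minus strand), which passes cholesterol and phospholipid to apolipoprotein A-I, was close to silent. It had 12, 7 and 6 counts under DMSO and 8, 7 and 5 under GSK-A1. Summed over a group this was 25 counts in 126320495 with DMSO, or 0.198 CPM on unscaled totals (exact Poisson 95% interval 0.128 to 0.292), and 20 in 117220365 with GSK-A1, or 0.171 CPM (0.104 to 0.264). These intervals cover counting error only. They overlap, and a change smaller than they allow was not detectable at this depth. A fit without the filter on low counts put it at -0.20 on the log2 scale (edgeR adjusted p = 0.836). ABCA1, the gene with a DR4 match among the 7 with a promoter searched, was the least abundant of the set in both groups. Elements outside the bases searched would be missed, and a relation between match and level was not tested.

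ABCG1 (ENSG00000160179, chromosome 21, 42199689 to 42297244, plus strand), which moves cholesterol onto HDL, stood at 3.71, 3.54 and 3.68 CPM with DMSO and at 3.84, 4.54 and 4.66 CPM with GSK-A1. All GSK-A1 libraries were above all DMSO libraries, with GSK-A1 replicate 1 close to the DMSO range. Its estimate of 0.24 ± 0.11 on the log2 scale, the highest of the 8, did not pass (SE; edgeR adjusted p = 0.112, unadjusted p = 0.0363). The 95% interval ran from 0.02 to 0.47. None of the 15 other settings called it, with adjusted p from 0.0533 to 0.267.

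ABCG4 (ENSG00000172350, chromosome 11, 119149012 to 119162653, plus strand) is a close relative of ABCG1 best known in brain. It stood at 1.92, 2.28 and 2.11 CPM with DMSO and at 1.72, 1.52 and 2.11 CPM with GSK-A1. GSK-A1 replicate 3 lay within the DMSO range and the other GSK-A1 libraries lay below it. Its estimate was -0.24 ± 0.15 on the log2 scale (SE; edgeR adjusted p = 0.270; 95% interval -0.56 to 0.08).

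The estimates of these relatives had opposite signs, so their count ratio was read within each library. Under DMSO it was 1.93, 1.55 and 1.74 counts of ABCG1 per count of ABCG4, and under GSK-A1 2.24, 2.98 and 2.21. Every GSK-A1 library had a higher ratio than every DMSO library. Mean ratios were 1.74 ± 0.19 under DMSO and 2.48 ± 0.44 under GSK-A1 (SD, n = 3), which is 0.50 apart on the log2 scale. The exact two-sided permutation p was 0.1, the smallest this design allows, and 0.2 when adjusted over 2 ratios. This adjustment does not cover the choice of the ratio after its values had been seen, which favours a separation. Without GSK-A1 replicate 2, which had the highest ratio, the difference was 0.36.

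Of the other targets, SMPDL3A (ENSG00000172594, chromosome 6, 122789049 to 122809720, plus strand) encodes a secreted phosphodiesterase of the acid sphingomyelinase family that LXR ligands raise in human macrophages. It stood at 12.5, 12.8 and 12.8 CPM with DMSO and at 14.2, 16.0 and 13.6 CPM with GSK-A1. The DMSO libraries were tightly grouped and all GSK-A1 libraries were above them, with GSK-A1 replicate 2 highest. On the log2 scale it rose by 0.20 ± 0.07 (SE; edgeR adjusted p = 0.0456; 95% interval 0.05 to 0.35). The call held in 5 of 15 other settings, with adjusted p from 0.0216 to 0.142. Without GSK-A1 replicate 2 the log2 fold change was 0.14 (edgeR adjusted p = 0.101).

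MYLIP (ENSG00000007944, chromosome 6, 16129125 to 16148248, plus strand) encodes the ubiquitin ligase also called IDOL, which sends lipoprotein receptors for degradation. Its levels were 30.3, 31.5 and 31.0 CPM with DMSO and 30.4, 31.8 and 32.3 CPM with GSK-A1. The groups overlapped. Its estimate was 0.02 ± 0.05 on the log2 scale (SE; edgeR adjusted p = 0.761), and the 95% interval of -0.08 to 0.13 runs from -5.30% to 9.22%. Under upper-quartile factors the sign turned, to -0.02.

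LPCAT3 (ENSG00000111684, chromosome 12, 6976186 to 7018510, minus strand), which places polyunsaturated chains into phospholipids, stood at 62.2, 57.6 and 63.3 CPM with DMSO and at 58.4, 53.3 and 57.9 CPM with GSK-A1. The groups overlapped, since DMSO replicate 2 lay below 2 of the GSK-A1 libraries. Its estimate was -0.11 ± 0.05 on the log2 scale (SE; edgeR adjusted p = 0.122, unadjusted p = 0.0413; 95% interval -0.21 to -0.0048), and upper-quartile factors called it lower at -0.15 (edgeR adjusted p = 0.0388). Antisense exons of EMG1, a gene at 22.2 CPM, overlapped 65.6% of the exonic bases of LPCAT3. The strand setting of the counting is not given in the sources used here, so if it ignored strand these reads cannot be told apart.

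APOE (ENSG00000130203, chromosome 19, 44905754 to 44909393, plus strand), the apolipoprotein that accepts exported cholesterol, stood at 2.27, 2.09 and 2.05 CPM with DMSO and at 2.34, 1.76 and 3.10 CPM with GSK-A1. The GSK-A1 libraries lay on both sides of the DMSO range, with a wide spread. On the log2 scale its estimate was 0.16 ± 0.17 (SE; edgeR adjusted p = 0.520; 95% interval -0.19 to 0.52). That estimate was -0.04 when GSK-A1 replicate 3 was left out and 0.32 when GSK-A1 replicate 2 was.

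**Figure D3:**
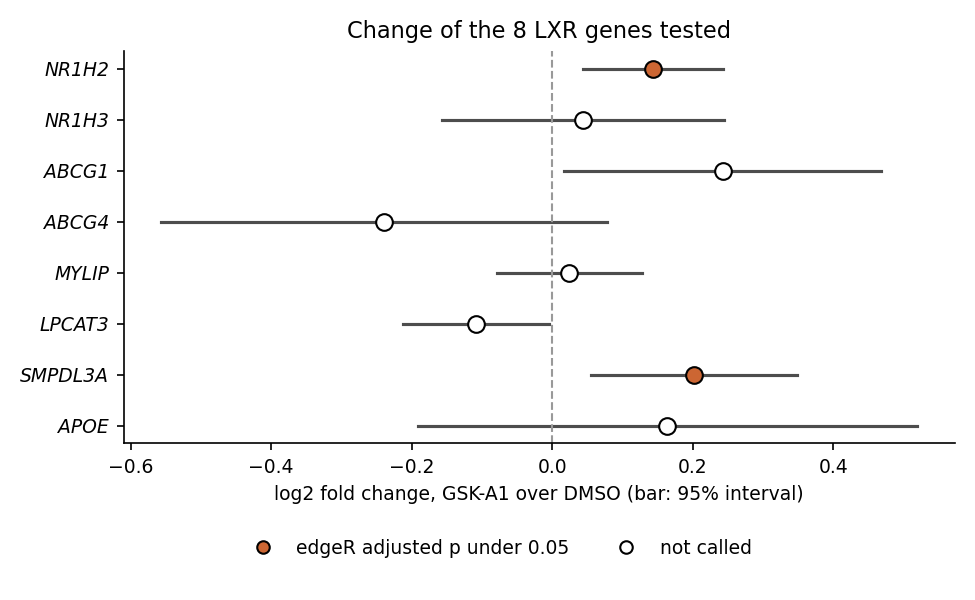
Log2 fold change of the 8 LXR genes tested, GSK-A1 over DMSO, with 95% intervals from edgeR. Filled points (NR1H2 and SMPDL3A) passed an adjusted p of 0.05. The intervals of NR1H3, ABCG4, MYLIP and APOE include 0.

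**Figure D4:**
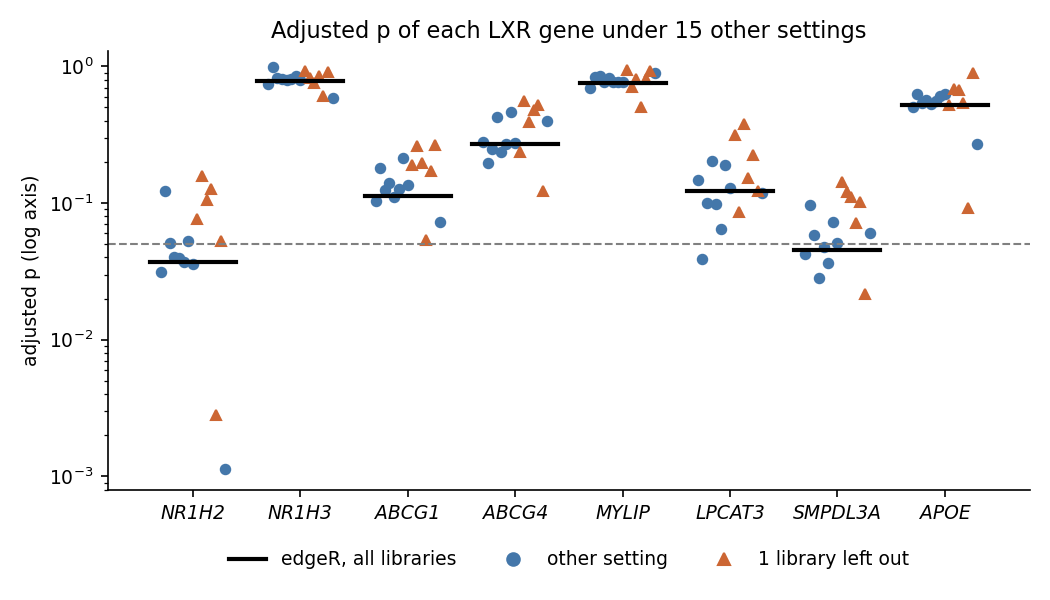
Adjusted p of the 8 LXR genes tested under edgeR with all libraries (black line) and under 15 other settings, on a log axis with a dashed line at 0.05. Triangles are fits without 1 library and circles all other settings. NR1H2 and SMPDL3A straddle the line, with 7 and 5 settings below it.

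Genes whose levels followed the called LXR genes most closely were sought among the 9823 tested genes with a symbol and at least 10 CPM, by Pearson r of log2 CPM over the 6 libraries. For NR1H2 these were TBL2 (r = 0.998), ARHGEF10L (r = 0.997) and MON1B (r = 0.993). For SMPDL3A they were TMED2, YES1 and ROCK1 (each r = 0.997). These are descriptions over 6 points that share the treatment groups and, for SMPDL3A, the high GSK-A1 replicate 2.

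The partners that LXRs need on DNA were present and most did not pass the test. Of 20 receptor partners and coregulators, 19 were tested, 2 were called higher and 0 lower, with 2 and 1 at an unadjusted p under 0.05 in these directions. The share called was 10.5%, beside 22.9% of all genes tested (35.8% at an unadjusted p under 0.05). The obligate partner genes RXRA (log2 fold change -0.08 ± 0.04; edgeR adjusted p = 0.181) and RXRB (-0.03 ± 0.06; edgeR adjusted p = 0.714) were not called, and RXRG had at most 8 counts. MED1, a Mediator subunit that contacts nuclear receptors, rose from 151.9 ± 2.0 to 167.4 ± 2.2 CPM (SD, n = 3), or by 0.14 ± 0.03 in log2 units (SE; edgeR adjusted p = 0.00898). The coactivator gene NCOA3 rose by 0.17 ± 0.05 (edgeR adjusted p = 0.0151). The corepressor gene NCOR1 was not called (0.05 ± 0.04; edgeR adjusted p = 0.355). This list gave 0 calls without DMSO replicate 1 and 1 without DMSO replicate 2 or 3, and 4 under upper-quartile factors (3 of them lower) and with the GC trend removed.

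Other LXR targets outside the set moved in both directions. Of 22 listed, 14 were tested, 1 was called higher and 4 lower. This is 35.7% called, beside 22.9% of all genes tested, and no test compared these shares. The median of the 14 genes was -0.05 on the log2 scale. The 4 that fell were SREBF1, SCD, FASN and PNPLA3, while ACACA, MLXIPL and LPIN1, also known for roles in lipid synthesis, did not pass (-0.05 ± 0.04, -0.14 ± 0.12 and 0.10 ± 0.04; edgeR adjusted p = 0.331, 0.445 and 0.0837). SREBF1, which encodes SREBP1, had 20.4, 19.5 and 22.1 CPM with DMSO and 14.7, 15.1 and 17.3 CPM with GSK-A1. Every GSK-A1 library was below every DMSO library, for a fall of -0.40 ± 0.07 on the log2 scale (SE; edgeR adjusted p = 8.63e-04). Antisense exons of RAI1, a gene at 76.0 CPM, overlapped 6.92% of the exonic bases of SREBF1. The desaturase gene SCD changed by -0.33 ± 0.03, the fatty acid synthase gene FASN by -0.23 ± 0.03 and PNPLA3, a lipid droplet lipase gene, by -0.33 ± 0.09. SCD, FASN and SREBF1 were called in all 15 other settings and PNPLA3 in 10. The count of 5 became 3 without DMSO replicate 3.

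The 8 listed targets that were not tested, among them CETP, ABCG5, ABCG8, CYP7A1 and NR0B2, had at most 3 counts in any library.

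Enzymes that make or remove LXR ligands were read next. Of 14 genes for oxysterol synthesis and removal, 10 were tested, 2 were called lower and 0 higher. At an unadjusted p under 0.05 there were 4 lower and 0 higher. Of all genes tested, 22.9% were called (12.0% higher and 10.9% lower), and 35.8% had an unadjusted p under 0.05. The share of this list called was thus near the background, and no test compared the directions. CH25H, the 25-hydroxylase of cholesterol, had no count in any library, which does not show that its mRNA was absent. CYP27A1, the mitochondrial 27-hydroxylase, and CYP46A1, the 24-hydroxylase of neurons, were not called (log2 fold changes -0.24 ± 0.17 and 0.10 ± 0.26; edgeR adjusted p = 0.337 and 0.819). Among the called genes was DHCR7, a reductase of late cholesterol synthesis, at -0.16 ± 0.04 (SE; edgeR adjusted p = 0.00636). The count of 2 became 1 without DMSO replicate 1.

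Among 20 genes that move or store cholesterol, 19 were tested, 2 were called higher and 2 lower. With 21.1% called, this list was near the 22.9% of all genes tested. NPC1, which lets LDL-derived cholesterol out of lysosomes, had 54.5, 49.7 and 50.9 CPM with DMSO and 65.5, 64.8 and 66.4 CPM with GSK-A1. The groups were well apart, and its rise by 0.34 ± 0.04 on the log2 scale (SE; edgeR adjusted p = 6.47e-05) was called in all 15 other settings. Antisense exons of RMC1, a gene at 29.7 CPM, overlapped 5.98% of the exonic bases of NPC1. OSBP, an oxysterol-binding exchanger of cholesterol for phosphatidylinositol 4-phosphate, rose by 0.14 ± 0.04 (edgeR adjusted p = 0.0258). The HDL receptor gene SCARB1 changed by -0.15 ± 0.04 (edgeR adjusted p = 0.0157) and the caveolin gene CAV1 by -0.22 ± 0.06 (edgeR adjusted p = 0.0235). Its 4 calls were 8 with the GC trend removed. They numbered 2 if DMSO replicate 1 or GSK-A1 replicate 1 was left out, 1 for DMSO replicate 2 or 3, and 7 for GSK-A1 replicate 2.

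Lipoprotein receptors, some of which MYLIP degrades, were read beside it. Of 12 genes for such receptors and for MYLIP control, 11 were tested, 3 were called higher and 0 lower, with 5 and 1 at an unadjusted p under 0.05. That is 27.3% called, beside 22.9% of all genes tested (35.8% at an unadjusted p under 0.05). No test compared these shares. LRP8 rose from 76.2 ± 2.8 to 90.6 ± 2.8 CPM (SD, n = 3), by 0.25 ± 0.04 on the log2 scale (SE; edgeR adjusted p = 5.80e-04), and this was called in all 15 other settings. VLDLR rose by 0.17 ± 0.06 (edgeR adjusted p = 0.0344), as did USP2, a deubiquitinase of MYLIP, by 0.27 ± 0.09 (edgeR adjusted p = 0.0410). Of the 3 calls, 1 was made when DMSO replicate 1 or 3, or GSK-A1 replicate 1, was left out. Antisense exons covered 17.5% of the exonic length of USP2 and 10.3% of that of LRP8. Those over LRP8 belonged to genes at 0.552 CPM or less.

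The SREBP2 targets gave the contrast in sterol genes. All 20 were tested, 13 were called lower and 0 higher, with 14 and 1 at an unadjusted p under 0.05, and the median log2 fold change was -0.19. The 65.0% called stands beside 25.0% of the LXR genes and 22.9% of all genes tested; no test compared these shares. Named by smallest p, NSDHL (-0.45 ± 0.04), LSS (-0.40 ± 0.05), TM7SF2 (-0.47 ± 0.07) and ACAT2 (-0.24 ± 0.04), which encode enzymes of the sterol synthesis pathway, were called in all 15 other settings. Antisense exons overlapped 52.3% of the exonic bases of ACAT2. Exons of TCP1, a gene at 618 CPM, covered 9.23% of its exonic length. Those of SOD2 covered 26.5%, and those of SOD2-OT1, a gene at 0.776 CPM, covered 33.9%.

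**Figure D5:**
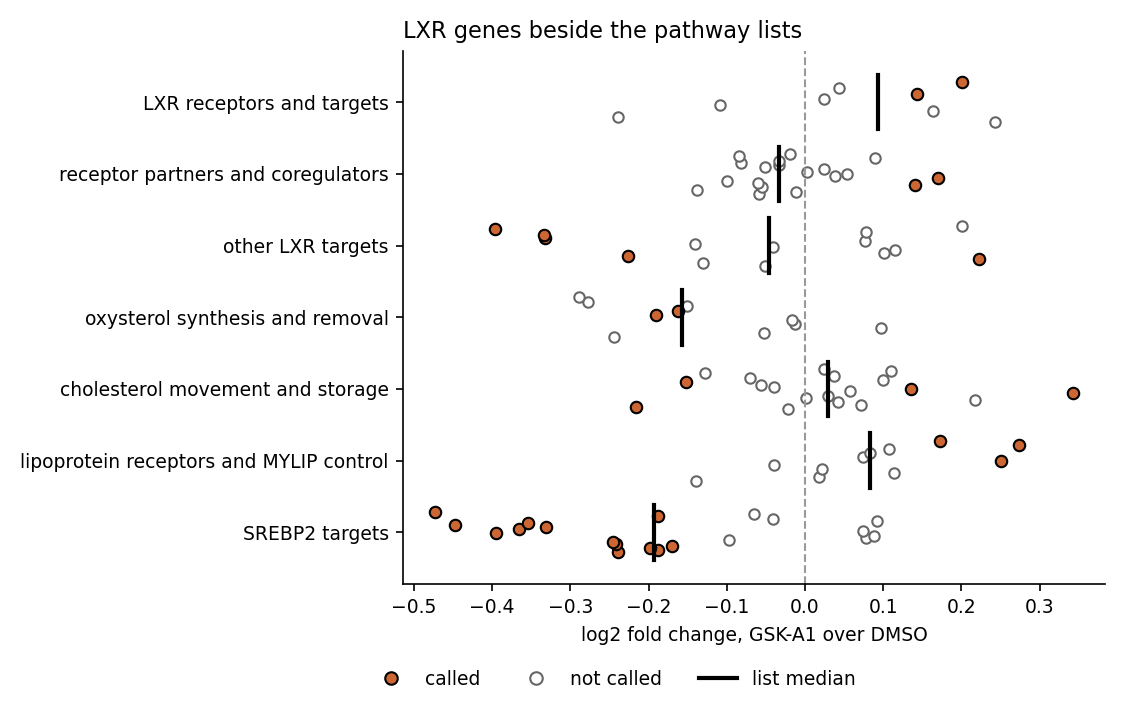
Log2 fold change, GSK-A1 over DMSO, of each tested gene in the LXR set and 6 pathway lists. Filled points passed an edgeR adjusted p of 0.05 and black lines are list medians. The LXR genes lie on both sides of 0 with 2 called, and 13 of 20 SREBP2 targets are called below 0.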

How the data were processed

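The authors deposited unnormalised whole-number counts for each gene in every library. Per the submitters' processing notes, cutadapt 5.1, STAR 2.7.11b, featureCounts from Subread 2.1.1, DESeq2 1.38.0 and the build GRCh38.p13 were used. Their roles, the annotation and the strand setting are not given in the sources used here. Libraries were made with a stranded kit, per the labels' protocols. Groups come from the treatment label.

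Genes were kept by filterByExpr (smallest count 10, smallest total 15), scaled by TMM and tested over 16754 genes with edgeR 4.0.16 (quasi-likelihood F test, robust, R 4.3.3). Calls use a Benjamini-Hochberg adjusted p under 0.05 over all genes tested. Intervals use each gene's total degrees of freedom. Lengths, positions and overlaps are from GENCODE 29 (GRCh38). The fit was tested on simulated data. With a dispersion of its own for each gene, wrong calls exceeded the nominal rate in every draw; with dispersions on the trend they were near it on average. The limit first set for this test was missed in the former case and then applied to the latter alone, and the fit was left as it was. The alternatives were other library factors and filters, the replicate block, DESeq2 1.42.0, limma-voom (limma 3.58.1), a threshold of 0.01 and fits without each library. The GC correction (loess, span 0.3) and the alternatives for the paralog ratios, group overlap and gene length were added after seeing the data.

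The LXR genes and the 6 pathway lists were chosen with earlier results of these data known. From each list, up to 4 called genes per direction with the smallest p are named, except some genes that are not reported here. Other listed genes were named after their values were seen, for their role in the pathway.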

Additional observations from a re-analysis of the deposited data

How the results depend on the processing

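Of the 3835 genes called, 1871 passed an adjusted p of 0.01, and between 2163 and 4890 were called when 1 library was left out. The share of calls that were higher was 52.3% under TMM and 33.3% under upper-quartile factors. The 2 LXR genes called became 1 under upper-quartile factors (LPCAT3, lower), 1 with limma-voom (NR1H2) and 1 with the GC trend removed (NR1H2), beside 24.0%, 22.5% and 25.6% of all genes. They became 0 with library totals only, with DESeq2 and at an adjusted p of 0.01, where 22.5%, 18.5% and 11.2% of all genes were called and 4, 2 and 4 of the 8 had an unadjusted p under 0.05. Without 1 library the count was 0 to 1, beside 12.7% to 28.1% of all genes. Estimates turned sign for MYLIP under upper-quartile factors (-0.016) and for APOE, which was -0.037 without GSK-A1 replicate 3 and reached 0.32 when replicate 2 was left out instead. With the replicate number as a block, 4127 genes and 2 LXR genes were called. Same-numbered libraries hardly deviated together (correlations 0.011, 0.019 and 0.032). GSK-A1 replicate 1 correlated about as well with DMSO replicate 2 (0.012) as with DMSO replicate 1 (0.011). Correlations this weak cannot decide whether a shared number marks a shared culture. The ratio of NR1H2 to NR1H3 differed by 0.08 to 0.14 (log2) and that of ABCG1 to ABCG4 by 0.36 to 0.58 without 1 library. The cause of these changes was not tested. Low counts kept ABCA1 out of the test, and ABCG1, ABCG4, APOE and NR1H3 had the largest standard errors of the 8 genes tested.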
